A study of Mus musculus with 4 samples.

Results

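The thick ascending limb nuclei described here are 2623 of the 27343 mouse kidney nuclei kept (9.59%), chosen by a gate on *Slit2*, *Enox1* and *Thsd4*. Nuclei were kept from the 10000 barcodes with the most unique molecular identifiers (UMIs) in each library if they held more than 500 and fewer than 4000 genes and under 5% mitochondrial UMIs. A nucleus entered the gate with at least 3 UMIs of *Slc12a1*, at most 2 of *Slc12a3*, at most 2 of *Aqp2*, and at least 3 UMIs of *Enox1*, *Thsd4* and *Slit2* together. The 3168 nuclei with the same *Slc12a1*, *Slc12a3* and *Aqp2* limits and a smaller sum of those 3 genes are called the other *Slc12a1* nuclei. The gate used measured counts, so the levels of its 6 genes describe the choice and carry no test.

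Single-nucleus RNA-seq was performed on kidneys of 4 male mice aged 12 weeks, 2 per group. Knockout mice were Hoxb7Cre+;Tfap2a fl/fl, and control mice carried the same 2 floxed *Tfap2a* alleles without Cre (labelled Cre-,Tfap2aFlox/Flox). The *Hoxb7* promoter drives Cre in the collecting duct system and the epithelia of the lower urinary tract, so the thick ascending limb is not the segment the deletion targets. A middle kidney slice was used with the cortex trimmed away, which leaves fewer cortical cells to find.

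The thick ascending limb takes up sodium, potassium and chloride through the cotransporter encoded by *Slc12a1*. Potassium returns to the lumen through the channel *Kcnj1*. The positive lumen then drives calcium and magnesium through claudin pores, under the calcium-sensing receptor *Casr*. The medullary and cortical stretches of the limb differ in their claudins and hormone receptors, and macula densa cells sit at its cortical end.

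The gated nuclei numbered 569 and 696 in control mice 1 and 2, and 565 and 793 in knockout mice 1 and 2. Their summed UMIs per mouse were 1446168, 1665830, 1363677 and 1983956, with medians per nucleus of 2132 to 2249, against 1741 to 1960 in the other *Slc12a1* nuclei. Library totals ran from 22179410 to 44964099 UMIs, and pairs of libraries shared 7 to 18 barcodes among the kept nuclei. Mice numbered 1 and 2 differed in both groups: the median mitochondrial share of all kept nuclei was 1.66% and 0.671% in controls and 1.05% and 0.417% in knockouts. The estimated share of free RNA in the gated nuclei was 20.3%, 9.62%, 25.5% and 10.8%, and in the other *Slc12a1* nuclei 24.1%, 12.3%, 32.9% and 12.9%. Doublets were called for 6.82% of the gated nuclei and 7.99% of the other *Slc12a1* nuclei.

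A name built on *Enox1* would describe a minority of these nuclei. *Enox1*, which encodes a cell-surface oxidase, had at least 1 UMI in 1073 of 2623 gated nuclei (40.9%), and at least 3 UMIs in 522 (19.9%). *Thsd4*, which encodes a matrix protein of the ADAMTS-like family, had a UMI in 714 (27.2%). *Slit2*, which encodes a secreted guidance ligand of the Robo receptors, had a UMI in 2575 (98.2%) and reached the limit of the gate by itself in 2282 (87.0%). A group of 1361 nuclei (51.9%) passed on *Slit2* with no UMI of *Enox1* or *Thsd4*. The nuclei are therefore called by their gate.

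The background for these shares is low for *Enox1* and *Thsd4*, and *Slit2* is not restricted to this limb. In proximal tubule nuclei, with median depths above those of the gated nuclei in every mouse (3040 and 3720 UMIs in the 2 controls), *Enox1* had a UMI in 1.33% to 2.13% of nuclei, *Thsd4* in 1.48% to 3.22% and *Slit2* in 1.66% to 2.06%. *Slc12a3* encodes the cotransporter of the distal convoluted tubule. The *Slc12a3* nuclei had at least 3 UMIs of *Slc12a3*, under 3 of *Slc12a1* and at most 2 of *Aqp2*. In them *Slit2* had a UMI in 79.1% to 88.6%. The mean *Slit2* level was 1163 CPM (UMIs of a gene scaled to a total of 1000000 per sum) in those *Slc12a3* nuclei, 2018 CPM in gated nuclei and 375 CPM in the other *Slc12a1* nuclei.

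The make-up of the gate followed the replicate number of the mouse more than its genotype. At least 1 *Enox1* UMI was found in 54.7% of gated nuclei of control mouse 1 (95% Wilson interval 50.6 to 58.7) and 29.2% of control mouse 2 (25.9 to 32.7). The shares in knockout mice 1 and 2 were 54.2% (50.04 to 58.2) and 31.9% (28.8 to 35.2). The *Enox1* level was 840 and 434 CPM in controls and 857 and 450 CPM in knockouts. The 2 mice numbered 1 were high and the 2 numbered 2 were low, so each genotype holds both. These intervals cover counting error only.

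**Figure D1:**
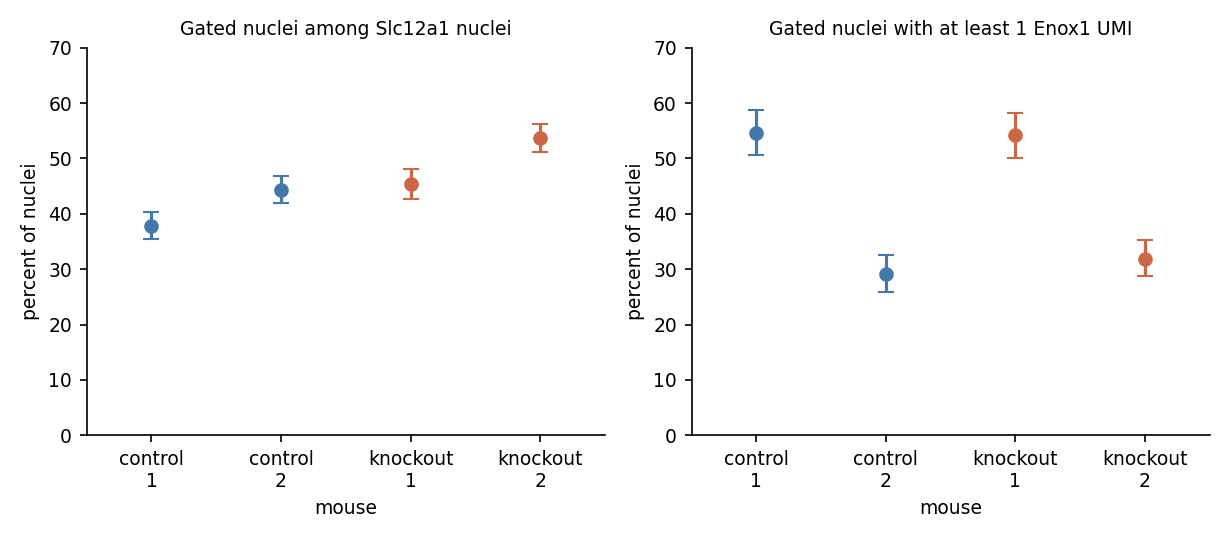
Percent of nuclei (y axis) in each mouse (x axis), with 95% Wilson intervals as bars. Left, gated nuclei among all *Slc12a1* nuclei, from 37.9% in control mouse 1 to 53.8% in knockout mouse 2. Right, gated nuclei with at least 1 *Enox1* UMI, at 54.7% and 54.2% in the mice numbered 1 and 29.2% and 31.9% in those numbered 2.

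The gated share of all *Slc12a1* nuclei was 37.9% (35.4 to 40.3) and 44.4% (41.9 to 46.8) in controls, and 45.4% (42.7 to 48.2) and 53.8% (51.2 to 56.3) in knockouts. The means were 41.1% ± 4.60 and 49.6% ± 5.90 (SD, n = 2 per group), and the 2 knockout values lay above both control values. The exact two-sided permutation test gave p = 0.333, the smallest that 2 against 2 mice allow and above the threshold, so this test could not pass at this size. After each nucleus was thinned to 1000 UMIs, which left 7397 and 5295 control and 7401 and 6042 knockout nuclei, the means were 22.2% ± 0.0138 in controls and 27.1% ± 0.263 in knockouts, again with both knockout values (26.9% and 27.3%) above both control values (22.1% and 22.2%). The groups overlapped with the gate set on at least 2 UMIs of *Enox1* alone. The shares of *Slc12a1* nuclei were then 14.7% and 8.09% in controls and 17.8% and 12.1% in knockouts. Among all kept nuclei the gated share was 7.35% and 12.8% in controls and 7.06% and 12.8% in knockouts, where the groups overlapped.

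Nuclei on both sides of the limit of the gate were set side by side, with no test. The 553 gated nuclei with a sum of exactly 3 UMIs had a mean *Egf* level of 6726 CPM and a *Casr* level of 452 CPM over the 4 mice. The 795 nuclei just outside, with a sum of 2, had 5672 CPM of *Egf* and 407 CPM of *Casr*. *Slit2* was at 1173 and 840 CPM, a step set by the rule itself.

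The nuclei were then split by whether any UMI of *Enox1* or *Thsd4* was present, as a description chosen after the values were seen and with no test. The 1262 nuclei with *Enox1* or *Thsd4* and the 1361 *Slit2*-only nuclei had like *Slit2* levels, with means of 2062 and 1983 CPM, and like *Slc12a1* levels of 15600 and 17650 CPM. *Egf*, the precursor of epidermal growth factor, was at 14410 CPM in the first and 5891 CPM in the second, against 4791 CPM in the other *Slc12a1* nuclei. *Casr* was at 876, 402 and 337 CPM in the same order. *Wnk1*, a kinase upstream of the cotransporters, was at 1148, 317 and 249 CPM.

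For these genes the *Slit2*-only nuclei lay nearer to the other *Slc12a1* nuclei than to the nuclei with *Enox1* or *Thsd4*. Genes that were low in the nuclei with *Enox1* or *Thsd4* showed the same order. *Cldn10*, the sodium pore of the limb, was at 619, 1180 and 1235 CPM in nuclei with *Enox1* or *Thsd4*, *Slit2*-only nuclei and other *Slc12a1* nuclei. *Rgs7*, a regulator of G protein signaling, was at 14.4, 215 and 252 CPM. The long noncoding RNA *Gm26561* was at 99.8 and 729 CPM in the 2 gated fractions.

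**Figure D2:**
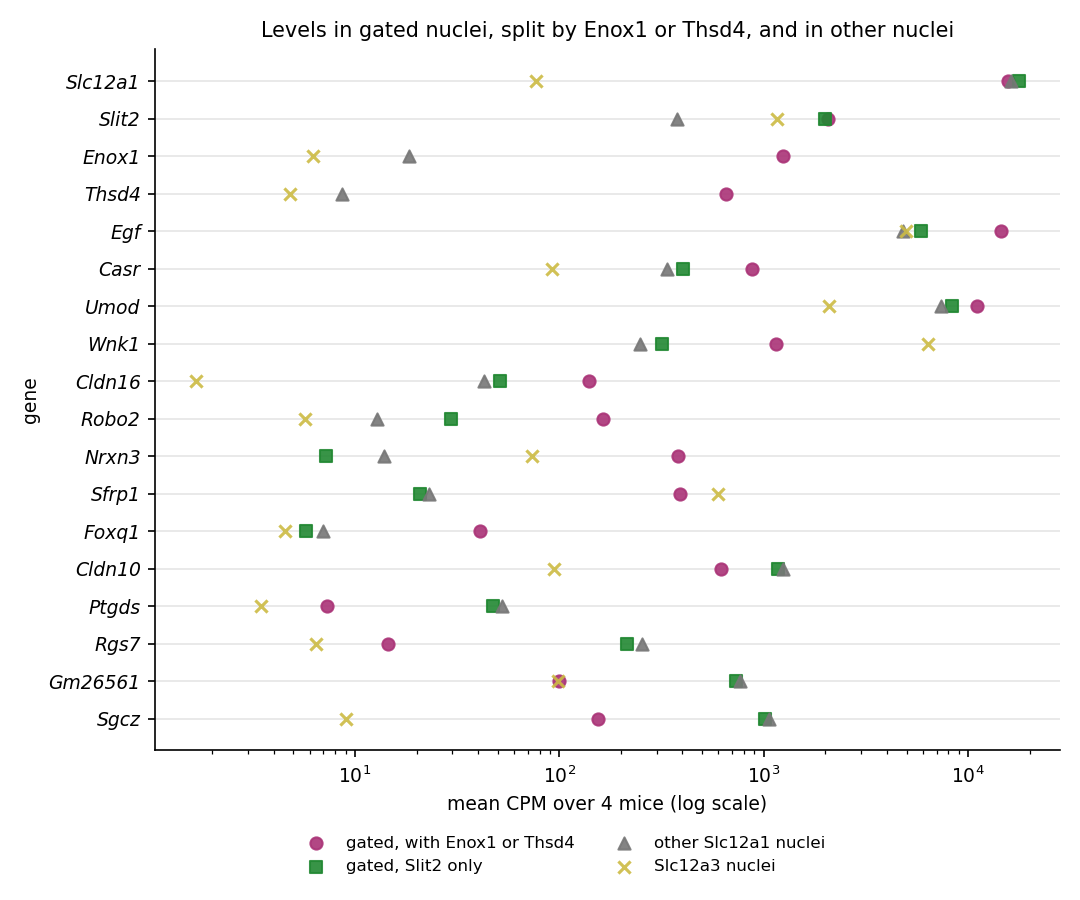
Mean CPM over 4 mice (x axis, log scale) of 18 genes (y axis) in gated nuclei with *Enox1* or *Thsd4*, gated nuclei with *Slit2* only, other *Slc12a1* nuclei and *Slc12a3* nuclei. The *Slit2*-only nuclei have no point for *Enox1* and *Thsd4*, where they are at 0 by definition. *Egf* is at 14410 CPM in nuclei with *Enox1* or *Thsd4* and 5891 CPM in *Slit2*-only nuclei.

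A small group among the gated nuclei carried genes of the macula densa, the sensor of tubular salt at the end of the limb. *Nos1* encodes the neuronal nitric oxide synthase and *Pappa2* a secreted protease. A sum of at least 2 UMIs over both genes was found in 32 gated nuclei, namely 6, 8, 8 and 10 per mouse. Either gene could reach that sum by itself. The sum was reached in 0 of the 3168 other *Slc12a1* nuclei, which allows a share of up to 0.0947%. Among all 27343 nuclei 34 met that limit. Of the 32, 31 held *Enox1* or *Thsd4*. Their pooled levels were 5317 CPM for *Robo2*, a Slit receptor, 4841 CPM for *Slit2* and 1969 CPM for *Thsd4*. *Egf* was at 738 CPM and *Umod*, which encodes uromodulin, at 968 CPM, and *Foxq1* and *Tmem52b* had 0 UMIs in a summed 60936 UMIs. *Robo2* was at 163 CPM over all nuclei with *Enox1* or *Thsd4* and at 29.6 CPM in the *Slit2*-only nuclei.

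Gated nuclei were compared with the other *Slc12a1* nuclei of the same mice, leaving out the 6 gate genes. The test was edgeR's quasi-likelihood F test on UMI sums per mouse and population, with mouse as a term and Benjamini-Hochberg adjustment. Of 15629 genes tested, 635 (4.06%) were higher and 684 (4.38%) lower in gated nuclei at an adjusted p under 0.05. The 4 mice are compared within themselves, so the p-values measure how alike the 4 differences were. Among called genes with at least 50 CPM in either population, 373 of 397 higher genes were farther from the other *Slc12a1* nuclei in the nuclei with *Enox1* or *Thsd4* than in the *Slit2*-only nuclei. For lower genes the count was 334 of 465. The calls were made on sums that hold both fractions, so these counts are tied to the choice of genes and carry no test. Call counts depended on the fit: 96 higher and 7 lower genes passed without mouse as a term, and 252 and 165 with DESeq2. When the gate read one random part of each nucleus's UMIs and the sums took the rest, 396 were higher and 359 lower, and without knockout mouse 1 343 were lower.

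Of the salt reabsorption genes, 4 of 14 tested rose and 3 fell, and the median log2 difference over the list was -0.03 (all genes, -0.02). *Umod*, which encodes the most abundant urinary protein, was at 9507, 9157, 11930 and 8491 CPM in gated nuclei of control mice 1 and 2 and knockout mice 1 and 2, and at 6744, 7610, 9315 and 5812 CPM in the other *Slc12a1* nuclei. It was higher in the gated nuclei of each mouse, although the ranges overlapped (log2 difference 0.43, SE 0.04, adjusted p = 1.54e-13). *Fxyd2*, the gamma subunit of the sodium pump, was at 3656, 2326, 3558 and 3242 CPM against 5265, 2819, 4783 and 4103 CPM (-0.38, SE 0.04, adjusted p = 2.17e-10). Gated nuclei had less *Fxyd2* than the other nuclei of the same mouse in all 4 mice.

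*Bsnd* rose (log2 difference 0.62, SE 0.11), as did the basolateral potassium channel *Kcnj16* (0.42, SE 0.05). The potassium channel *Kcnt1* fell by 0.27 on the log2 scale. *Kcnj1* did not pass the test, with 516 ± 31.9 CPM in gated and 487 ± 20.9 CPM in other *Slc12a1* nuclei (SD, n = 4 mice).

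Of the kinases and regulators of the cotransporters, 3 of 17 tested rose and 2 fell. *Wnk1* was at 844, 468, 1052 and 674 CPM against 223, 211, 310 and 251 CPM, with no overlap (log2 difference 1.59, SE 0.07, adjusted p = 1.33e-30). *Klhl3*, an adaptor of the ubiquitin ligase that degrades WNK kinases, rose by 0.58 (SE 0.10) and the calcineurin subunit *Ppp3ca* by 0.32 (SE 0.06). *Cab39l* and *Sorl1* fell by 0.25 and 0.19. *Stk39* and *Wnk4* did not pass, at adjusted p = 0.139 and 0.0661. *Wnk1* was far higher in the *Slc12a3* nuclei, at 6392 CPM, so its level in gated nuclei lay between those of the other *Slc12a1* and the *Slc12a3* nuclei.

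Calcium and magnesium genes had 7 of 18 tested higher and 2 lower, with a list median of 0.23. *Casr* was at 574, 876, 595 and 518 CPM against 249, 589, 266 and 244 CPM. It was higher in the gated nuclei of each mouse, with control mouse 2 high in both populations (log2 difference 0.99, SE 0.07, adjusted p = 2.00e-20). *Casr* was a given marker of these nuclei, chosen with earlier results of these data known, so its p-value is no independent support. *Cldn16*, the pore component that is needed for magnesium uptake, was at 86.4, 97.3, 114 and 78.1 CPM against 32.3, 40.2, 48.1 and 51.2 CPM (1.15, SE 0.11, adjusted p = 1.14e-12).

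Its partner *Cldn19* did not pass (0.18, SE 0.09, adjusted p = 0.267). *Cldn10* fell by 0.46 (SE 0.05, adjusted p = 2.45e-11), and *Tmem207* by 0.45 (SE 0.07). *Rragd*, a GTPase of the lysosomal nutrient pathway, rose by 1.12 (SE 0.14). The cortical list, without gate genes, had 3 of 7 higher and 1 lower (median 0.52), and the medullary list 1 of 8 higher and 3 lower (median -0.05). The cortical genes that rose were *Casr*, *Cldn16* and *Pth1r*, and *Tmem207* fell.

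**Figure D3:**
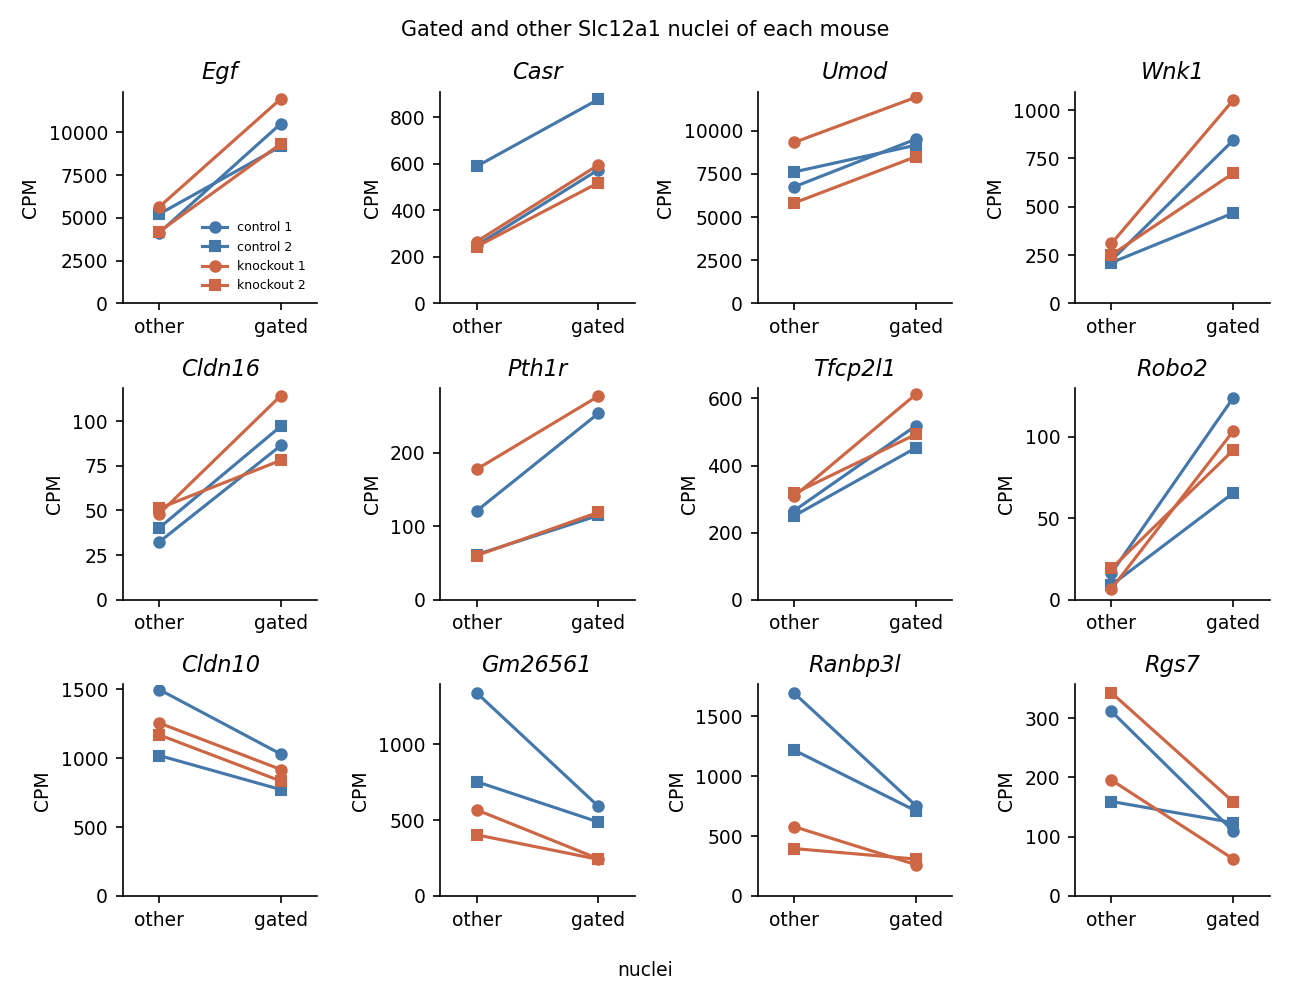
CPM (y axes, from 0) of 12 genes in the other *Slc12a1* nuclei and the gated nuclei (x axis), with 1 line per mouse, blue for control and orange for knockout, circles for mice numbered 1 and squares for mice numbered 2. Lines of *Egf*, *Casr*, *Umod*, *Wnk1*, *Cldn16*, *Pth1r*, *Tfcp2l1* and *Robo2* go up and those of *Cldn10*, *Gm26561*, *Ranbp3l* and *Rgs7* go down in all 4 mice.

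Receptors showed 8 of 24 tested higher and 4 lower, with a median of 0.06. *Pth1r*, the receptor of parathyroid hormone, was at 254, 115, 277 and 119 CPM against 121, 61.4, 178 and 60.1 CPM (0.89, SE 0.08, adjusted p = 1.50e-13). It was high in mice numbered 1 and low in mice numbered 2 in both populations. *Calcr*, the calcitonin receptor, was at 15.9 ± 6.40 CPM against 0.900 ± 0.684 CPM (SD, n = 4; adjusted p = 7.09e-12). The glucagon receptor *Gcgr* rose by 0.64 (SE 0.10), the mineralocorticoid receptor *Nr3c2* by 0.47 (SE 0.06) and the ERBB receptor gene *Erbb4* by 0.28 (SE 0.04).

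Among the receptor genes that fell were *Ghr*, *Esr1* and *Igf1r*. These were more abundant in proximal tubule nuclei, from 280 CPM for *Esr1* to 8629 CPM for *Ghr*, than in the other *Slc12a1* nuclei. *Ptger3* (-0.04, SE 0.05) and *Avpr2* (-0.21, SE 0.24) did not pass.

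The ligand *Egf* was at 10510, 9182, 11960 and 9331 CPM against 4123, 5219, 5635 and 4188 CPM. The groups did not overlap, with a log2 difference of 1.11 (SE 0.04, adjusted p = 3.69e-32). Like *Casr*, *Egf* was a given marker chosen with earlier results of these data known, so its p-value is no independent support. Of the transcription factors, 7 of 28 tested rose and 2 fell. *Foxq1* rose by 1.83 (SE 0.24), *Hoxd8* by 0.92 (SE 0.12), *Tfcp2l1* by 0.87 (SE 0.06) and the AP-2 inhibitor *Kctd1* by 0.54 (SE 0.06), and the nephron factor *Pax2* fell by 0.37 (SE 0.07). *Tfap2a* was low in both populations, at 9.07 ± 2.32 against 4.09 ± 1.96 CPM (SD, n = 4; log2 difference 1.13, SE 0.34, adjusted p = 0.0230). It was at 90.0 CPM in the *Slc12a3* nuclei. *Tfap2b* was at 406 and 381 CPM in gated and other *Slc12a1* nuclei (0.11, SE 0.06, adjusted p = 0.362).

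Guidance genes beside *Slit2* had 3 of 10 tested higher and 0 lower by the same edgeR test. *Robo2* was at 124, 65.4, 103 and 91.7 CPM against 16.4, 8.998, 6.66 and 19.1 CPM (2.89, SE 0.15, adjusted p = 4.98e-26). Of its 611 UMIs in gated nuclei, 324 (53.0%) were in the 32 nuclei with macula densa genes, 49.9% were in the 5 nuclei per mouse with the most, and 126 of 2623 nuclei held any. *Robo3* rose by 0.56 (SE 0.14) and the Robo-linked GTPase regulator *Srgap1* by 1.19 (SE 0.23). *Robo1* did not pass (0.05, SE 0.25), nor did *Slit3* (1.19, SE 0.51, adjusted p = 0.167). The macula densa list had 5 of 7 higher and 0 lower, *Robo2* and *Calcr* among them. *Nos1* was at 14.7 ± 3.96 against 1.03 ± 0.470 CPM and *Pappa2* at 17.4 ± 8.06 against 0.659 ± 0.565 CPM. Both levels came mostly from the 32 nuclei, which were picked by *Nos1* and *Pappa2* and held 90 and 112 UMIs of them. All gated nuclei held 18, 17, 25 and 35 UMIs of *Nos1* and 27, 17, 17 and 56 of *Pappa2* per mouse.

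The tonicity list, osmolyte transporters and their regulators, had 0 of 9 higher and 4 lower by edgeR. The betaine transporter *Slc6a12* fell by 1.62 (SE 0.27), the taurine transporter *Slc6a6* by 0.67 (SE 0.11) and *Slc38a2* by 0.41 (SE 0.07). *Nfat5*, the master factor of the tonicity response, was at -0.06 (SE 0.05) and did not pass. Energy genes had 1 of 23 higher and 3 lower, and stress genes 2 of 22 higher and 0 lower, which were *Ier3* and *Spp1*. Clock genes had 2 of 21 higher and 0 lower.

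Among the 15 named genes higher in gated nuclei, *Gm6994* had the largest difference, at 59.5 against 3.32 CPM, but it lies inside the gate gene *Enox1* (chromosome 14, 77479483 to 77506868, within 77156248 to 77721763, GRCm38.p6). It was at 113 CPM in nuclei with *Enox1* or *Thsd4* and 1.73 CPM in *Slit2*-only nuclei, and reads of the 2 genes may not be told apart, so its difference follows from the gate and is no finding. No other called gene overlapped a gate gene by its RefSeq position. *Nrxn3*, a synaptic adhesion gene, was at 206, 22.8, 431 and 200 CPM against 13.4, 6.35, 25.2 and 10.2 CPM (3.90, SE 0.14, adjusted p = 2.93e-35). It was low in control mouse 2 but there too above the other nuclei. *Sfrp1*, a secreted Wnt modulator, rose by 3.25, *Cadm2* and *Cdh6*, both adhesion genes, by 2.84 and 2.57, *Rtl4* by 2.60, and *Klk1*, tissue kallikrein, by 2.17. The rest were *Pde10a*, *Robo2*, *Slc8a1*, *Shd*, *Rab6b*, *Tmem117*, *Ier3* and *Phactr1*. Of the 15 named genes, 8 were higher in the *Slc12a3* nuclei than in gated nuclei. Over all called higher genes with at least 50 CPM in either population that count was 197 of 397. For 13 of the 15, *Gm6994* included, the nuclei with *Enox1* or *Thsd4* were higher than the *Slit2*-only nuclei, though the calls came from sums that hold both.

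The exceptions to that order were *Slc8a1*, the sodium-calcium exchanger, and *Phactr1*, a phosphatase and actin regulator. *Slc8a1* was at 61.2 CPM in nuclei with *Enox1* or *Thsd4*, 497 CPM in *Slit2*-only nuclei and 17630 CPM in *Slc12a3* nuclei. Of its 1755 UMIs in gated nuclei, 92.9% came from the 5 nuclei per mouse with the most, 20 in all, and 136 of 2623 nuclei held any. With called doublets left out the log2 difference was 2.09 in place of 2.86. *Phactr1* had 69.1% of its 372 UMIs in such nuclei.

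Of the 15 named genes lower in gated nuclei, 10 were at least 5-fold higher in proximal tubule nuclei than in the other *Slc12a1* nuclei, among them *Cntnap5a*, *Gramd1b*, *Pdzrn3* and *Slc22a28*. Over all called lower genes with at least 50 CPM in either population the count was 81 of 465, so these 15, picked for the largest differences, do not stand for the rest. All 12 proximal tubule markers were lower in gated nuclei too. Their summed level was 17970, 7381, 22430 and 4693 CPM against 21370, 9427, 28840 and 5606 CPM. With the estimated free RNA subtracted, 315 genes were lower in place of 684, and 725 of the 1319 genes called in either direction were called again.

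The other 5 lower genes, *Rgs7*, *Ptgds*, *Lama1*, *Gm26561* and *Arrdc2*, were low in proximal tubule nuclei, at 2.25 to 57.1 CPM. *Rgs7* was at 109, 124, 62.3 and 159 CPM in gated nuclei against 311, 159, 195 and 343 CPM (-1.11, SE 0.10, adjusted p = 5.72e-15). *Ptgds*, a prostaglandin D synthase, was at 22.8, 26.4, 21.3 and 36.8 CPM against 57.2, 39.7, 44.4 and 68.3 CPM (-0.94, SE 0.14, adjusted p = 4.13e-07). *Gm26561* was at 591, 487, 245 and 241 CPM against 1339, 753, 568 and 403 CPM (-0.93, SE 0.07).

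Markers of neighbouring cells moved with the gate as well. Of the intercalated cell markers, which mark acid-base cells of the collecting duct, 4 of 9 were higher and 0 lower. Their sum was 243, 130, 119 and 58.5 CPM in gated and 113, 25.4, 64.4 and 39.6 CPM in other *Slc12a1* nuclei. Connecting tubule and principal cell markers had 2 of 12 higher, *Scnn1a* and *Calb1*, with sums of 329 to 403 against 258 to 303 CPM. Distal convoluted tubule markers had 5 of 7 higher, *Egf*, *Tmem52b*, *Sgms2*, *Calb1* and *Trpm6*. Thin limb markers had 5 of 9 lower and interstitial markers 2 of 7 lower. By edgeR 0 of 9 endothelial, 0 of 8 immune and 0 of 4 dividing cell markers passed adjustment, with 3 higher, 1 lower and 0 at an unadjusted p under 0.05, and 1 of 7 podocyte markers was lower. The part of such nuclei or their RNA in the differences was not tested.

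Knockout and control mice were compared within the gated nuclei to ask whether a deletion aimed at the collecting duct went along with changes in this limb. Of 14070 genes tested with edgeR, 1 was higher and 1 lower in knockout mice, each 0.00711% of those tested. At an unadjusted p under 0.05, 172 (1.22%) were higher and 251 (1.78%) lower. In 2081 genes (14.8%) both knockout mice lay above both control mice, and in 2199 (15.6%) both lay below. Fewer cells of a type and less RNA per cell cannot be told apart in such sums. The counts rose to 25 higher and 34 lower with no filter on low counts, to 27 and 33 without knockout mouse 1, and to 8 and 10 without knockout mouse 2.

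*Col5a2*, which encodes a chain of type V collagen (chromosome 1, 45374331 to 45503282, GRCm38.p6), was the higher gene. It had 0 and 0 UMIs in control mice and 172 and 177 UMIs in knockout mice, or 126 and 89.2 CPM. Against a floor of 3 UMIs over both control mice together (0.964 CPM), the pooled knockout level of 104 CPM was at least 108-fold higher (adjusted p = 0.00625). A *Col5a2* UMI was present in 14.5% (11.9 to 17.7) of gated nuclei of knockout mouse 1 and 11.5% (9.44 to 13.9) of knockout mouse 2. In control mice it was present in 0 of 569 and 0 of 696 nuclei, which allows shares of up to 0.527% and 0.431%. In proximal tubule nuclei of the 4 mice the share was 0.152% to 0.368%.

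Most of these UMIs were in nuclei with *Enox1* or *Thsd4*. In them *Col5a2* was at 174 and 183 CPM in knockout mice, with a UMI in 21.1% and 23.0% of nuclei. In *Slit2*-only nuclei it was at 35.8 and 24.7 CPM. In the other *Slc12a1* nuclei it had 2 and 1 UMIs in controls and 33 and 34 UMIs in knockouts, or 24.4 and 23.2 CPM. In *Slc12a3* nuclei it had 2 and 0 UMIs in controls and 50 and 54 in knockouts, or 53.9 and 72.2 CPM. The knockout mice were above the control mice in each of these populations. The difference of the genotype change between gated and other *Slc12a1* nuclei did not pass for *Col5a2* (adjusted p = 0.785).

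*Sgcz*, which encodes the zeta subunit of the sarcoglycan complex (chromosome 8, 37517840 to 38661705, GRCm38.p6), was the lower gene. It had 1352 and 2195 UMIs in control mice and 54 and 137 in knockout mice, or 935 and 1318 against 39.6 and 69.1 CPM. The groups did not overlap, and the log2 difference was -4.36 (SE 0.35, adjusted p = 0.00625). A UMI was present in 43.2% (39.2 to 47.3) and 59.2% (55.5 to 62.8) of gated nuclei in controls and 7.26% (5.39 to 9.70) and 9.33% (7.50 to 11.6) in knockouts. In proximal tubule nuclei the share was 1.47% to 3.10%.

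Unlike *Col5a2*, *Sgcz* was most abundant outside the nuclei with *Enox1* or *Thsd4*. Its level in controls was 225 and 326 CPM in those nuclei, 1984 and 1910 CPM in *Slit2*-only nuclei and 2082 and 1988 CPM in the other *Slc12a1* nuclei. In knockouts it was 31.5 and 35.8, 54.7 and 91.9, and 41.4 and 110 CPM in the same order. The other *Slc12a1* nuclei gave a log2 difference of -4.76 (SE 0.46). *Slc12a3* nuclei had 3 to 10 UMIs of *Sgcz* in each mouse and no separation of the groups. With the gate set on *Enox1* alone, the *Sgcz* difference was -2.35 and did not pass (adjusted p = 0.133), while *Col5a2* passed (adjusted p = 0.000162). Leaving out each mouse in turn moved the *Sgcz* value between -4.83 and -4.04, and both genes passed each time.

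Few genes near these loci were abundant enough to test. Within 1 Mb of *Col5a2*, 5 of 35 other RefSeq genes were tested, with log2 differences from -0.57 to 0.80, and within 1 Mb of *Sgcz* 3 of 26 were tested, from -0.68 to 0.49. None passed the adjusted test.

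**Figure D4:**
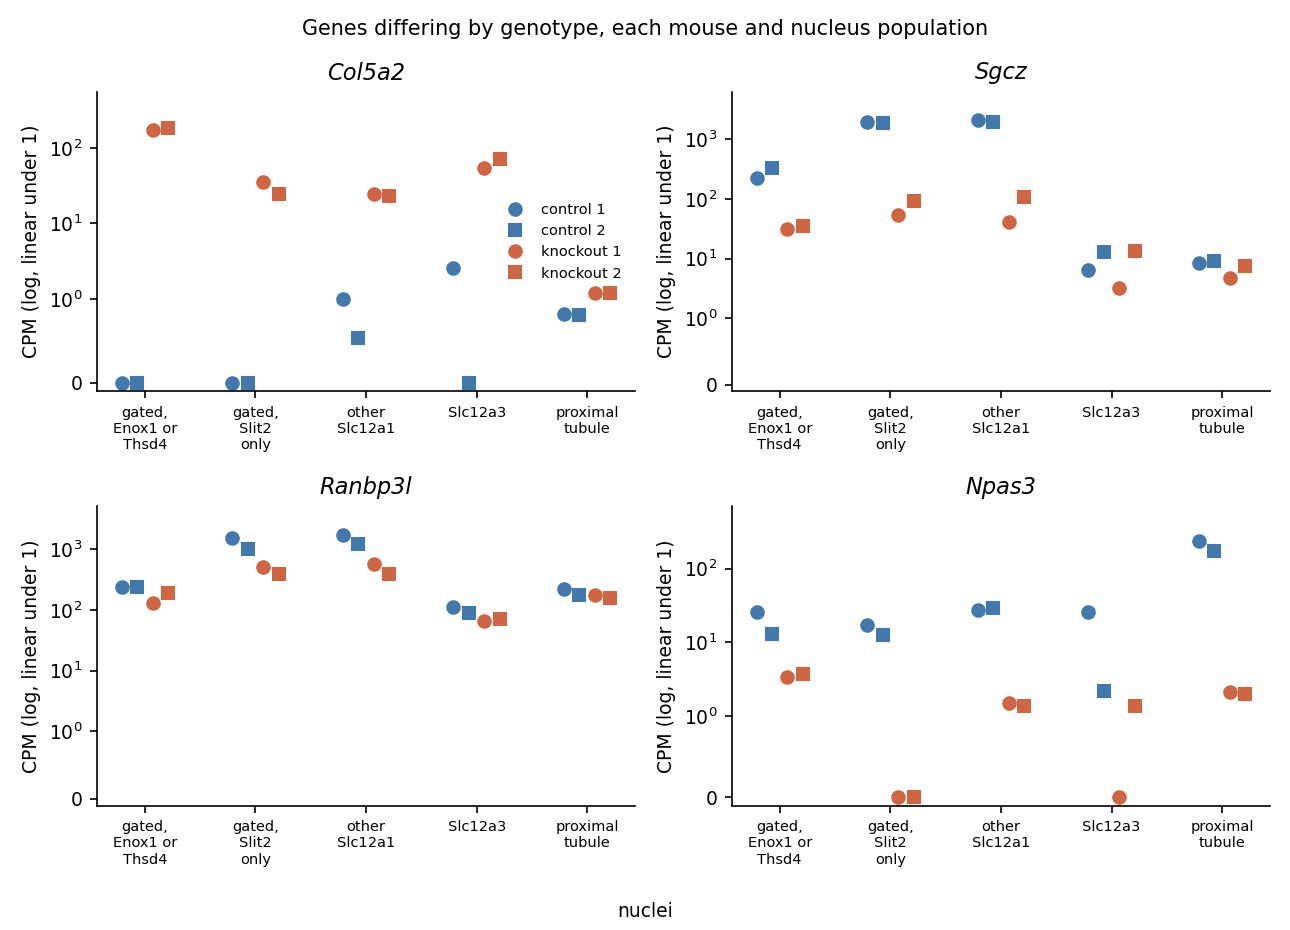
CPM (y axes, logarithmic above 1 and linear below) of *Col5a2*, *Sgcz*, *Ranbp3l* and *Npas3* in 5 populations of nuclei (x axis), with 1 point per mouse, blue for control and orange for knockout, circles for mice numbered 1 and squares for mice numbered 2. *Col5a2* is at 0 in gated nuclei of both control mice and at 174 and 183 CPM in knockout nuclei with *Enox1* or *Thsd4*, and *Sgcz* is at 2082 and 1988 CPM in control and 41.4 and 110 CPM in knockout mice in the other *Slc12a1* nuclei.

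The genes with the next smallest p-values missed the adjusted threshold. *Ranbp3l*, which encodes a Ran-binding protein, had 1091 and 1183 UMIs in control mice and 356 and 610 in knockout mice, or 754 and 710 against 261 and 308 CPM (-1.36, SE 0.23, unadjusted p = 0.000232, adjusted p = 0.969). The other *Slc12a1* nuclei gave -1.59 for *Ranbp3l*, and in proximal tubule nuclei it was at 222 and 176 against 178 and 158 CPM. *Npas3*, a neuronal transcription factor gene, had 32 and 21 against 3 and 3 UMIs in gated nuclei. In proximal tubule nuclei *Npas3* had 3130 and 1287 UMIs in controls and 30 and 23 in knockouts. *Arsj*, *Fgf9* and *Gm26561* were also lower, by 1.14 to 1.18 on the log2 scale.

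On the higher side were *Dbp*, *Zbtb16*, *Nat8f3*, *Nat8f6* and *Vmn1r18*. *Zbtb16*, a zinc finger factor, had 184 and 148 against 293 and 623 UMIs (1.3, SE 0.27, unadjusted p = 0.00115). *Nat8f3* and *Nat8f6* belong to a family of near-identical acetyltransferase genes, so reads could have been split between them, and both had 3 to 47 UMIs per mouse. In proximal tubule nuclei *Nat8f6* had 884 and 470 UMIs in controls and 2745 and 3370 in knockouts, or 66.3 and 63.2 against 191 and 288 CPM. *Nat8f3* was at 87.1 and 89.2 against 202 and 214 CPM there, and *Vmn1r18* at 146 and 246 against 221 and 447 CPM. The part of proximal tubule RNA in these 3 genes was not tested.

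Clock genes were the list with the most members past the unadjusted threshold. By edgeR 0 of 21 passed adjustment in either direction, but at an unadjusted p under 0.05 11 were higher and 1 was lower in knockout mice, against the 1.22% and 1.78% of all genes. The median log2 difference of the list was 1.06, against 0.02 over all genes. *Per2*, a repressor of the clock, had 18 and 21 UMIs in controls and 45 and 249 in knockouts, or 12.5 and 12.6 against 33.0 and 126 CPM (2.68, SE 0.57, unadjusted p = 0.00128). *Dbp*, a clock output factor, was at 22.8 and 17.4 against 51.3 and 61.0 CPM (1.49, SE 0.26). *Arntl*, the activator, went the other way, at 27.0 and 28.2 against 14.7 and 5.54 CPM (-1.51, SE 0.44). Knockout mouse 2 lay farther from the controls than knockout mouse 1 for *Per2*, *Dbp* and *Arntl*.

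The other *Slc12a1* nuclei gave like values, 2.55 for *Per2*, 1.69 for *Dbp* and -1.48 for *Arntl*. These share the mice with the gated nuclei. The labels give no time of day of tissue collection, and its part was not tested.

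**Figure D5:**
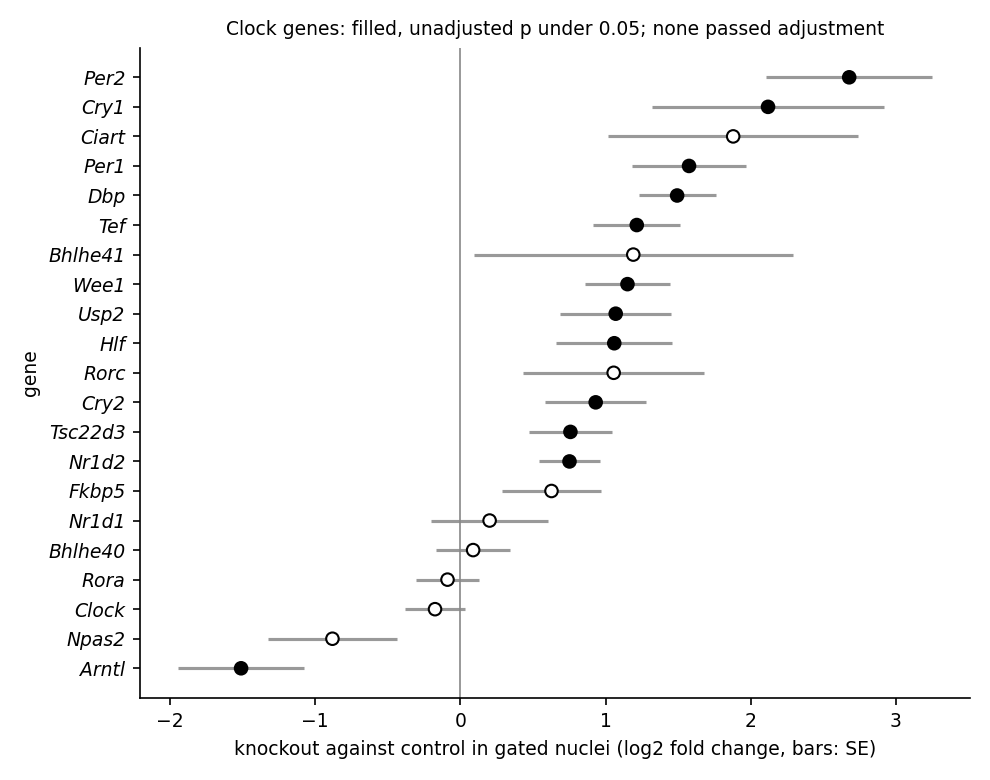
Log2 fold change of knockout against control mice in gated nuclei (x axis, bars are standard errors) for the 21 clock genes tested (y axis). Filled points had an unadjusted p under 0.05, 11 of them to the right of 0 and *Arntl* to the left, and none passed adjustment.

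Among genes fixed for inspection, *Tfap2a* had 18 and 12 UMIs in control and 11 and 17 in knockout mice (-0.21, SE 0.44, unadjusted p = 0.639). The reads are 3' tags and need not cover the floxed exons, so this level does not check the deletion. *Tfap2b* was at 369 and 450 against 370 and 434 CPM (-0.02). *Alcam*, an adhesion gene, was at 45.6 and 25.8 against 22.0 and 23.7 CPM (-0.62, unadjusted p = 0.0882). *Wnt9b*, a Wnt ligand, had 4, 1, 0 and 7 UMIs, too few to show a difference.

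*Casr* (-0.38), *Egf* (0.12) and *Umod* (0.14) did not pass. None of the 26 lists had a member past the adjusted threshold by edgeR. Of the intercalated cell markers, 4 of 9 were lower at an unadjusted p under 0.05, against 1.78% of all genes. These were *Slc4a1*, *Slc4a9*, *Kit* and *Aqp6*. The list sums were 243 and 130 CPM in controls and 119 and 58.5 CPM in knockouts. In the other *Slc12a1* nuclei the sums overlapped, at 113 and 25.4 against 64.4 and 39.6 CPM. The part of intercalated cells or their RNA was not tested. Connecting tubule and principal cell markers had 3 of 12 lower at an unadjusted p under 0.05, and the remaining lists had 0 or 1 in either direction.

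Whether the genotype change differed between gated and other *Slc12a1* nuclei was tested as an interaction within mice. Of 15635 genes tested, 7 (0.0448%) passed, 3 higher and 4 lower in gated nuclei. *Cryab*, a small heat shock protein, was at 547 and 372 against 271 and 214 CPM in gated nuclei and at 488 and 243 against 457 and 347 CPM in the others (difference -1.08, SE 0.13, adjusted p = 1.15e-12). *Akr1b3*, the aldose reductase that makes sorbitol, was at 131 and 168 against 79.9 and 60.5 CPM in gated nuclei and 117 and 77.8 against 86.6 and 79.2 CPM in the others (-0.87, SE 0.20, adjusted p = 0.0317). In gated nuclei the knockout values of *Cryab* and *Akr1b3* were below those of the controls without overlap, and in the others the groups overlapped. In *Slit2*-only nuclei the groups were apart too. There *Cryab* was at 982 and 351 against 215 and 279 CPM, and *Akr1b3* at 247 and 142 against 61.05 and 73.2 CPM. In nuclei with *Enox1* or *Thsd4* the groups overlapped. *Cryab* was at 253 and 408 against 302 and 119 CPM in those nuclei, and *Akr1b3* at 53.3 and 212 against 90.0 and 42.0 CPM. *Cryab* was also on the thin limb marker list. With called doublets left out *Cryab* was at -0.35 and *Akr1b3* at 0.10, and neither passed.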

How the data were processed

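Nuclei of 4 kidneys were sequenced with a 3' droplet kit. The deposited files hold UMI counts for 31053 genes and 6794880 barcodes per library, which the authors made with Cell Ranger 3.0.2 against mm10 with 10000 forced cells. Per the labels, Seurat 3.2.1.35 was also used. No cell annotation was used here.

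Counts were summed per mouse and population and tested with edgeR 4.0.16 (R 4.3.3): TMM normalization, at least 10 UMIs over the sums, quasi-likelihood F tests and Benjamini-Hochberg adjusted p under 0.05. The study's tests of its single-nucleus data compared nuclei, whereas here the mouse was the replicate. The study also tested bulk RNA-seq of whole kidneys, with animals as samples. SE is the log2 difference divided by the square root of F. Difference and population tests had mouse as a term, since both populations came from the same 4 mice. Labels do not tie same-numbered mice of different genotype. DESeq2 1.42.0 was an alternative, as were other gates, filters, doublet removal (Scrublet in scanpy 1.11.5), free RNA subtraction and leaving out each mouse. Free RNA was estimated from barcodes under 100 UMIs. Shares were tested with exact permutation tests (scipy 1.17.1), with 95% Wilson intervals.

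Proximal tubule nuclei had at least 5 UMIs of *Lrp2*, *Cubn*, *Slc34a1* and *Slc5a12* together. Gated nuclei, other *Slc12a1* nuclei and *Slc12a3* nuclei were left out of them. Members and gene lists were chosen with earlier results of these data known. Named genes were the gate genes, given markers, *Tfap2a*, *Tfap2b*, *Wnt9b*, *Alcam* and *Ranbp3l*, list members, up to 15 called genes per direction with the largest population difference at 50 CPM or more, and, between genotypes, the called genes or the 5 with the smallest p per direction. Some genes are not reported here. Scripts were tested on simulated data.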

Additional observations from a re-analysis of the deposited data

Results flagged for a closer look

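The genotype change differed between gated and other *Slc12a1* nuclei in 7 genes by the edgeR interaction test. Beside *Cryab* (-1.08) and *Akr1b3* (-0.87), the netrin receptor gene *Unc5c* was lower (-1.39, SE 0.25, adjusted p = 2.08e-04), at 70.5 and 44.4 CPM in control and 24.2 and 32.8 CPM in knockout mice in gated nuclei, and at 59.2, 43.9, 103 and 45.1 CPM in the others. *Adgrf5*, an adhesion receptor gene (-2.65, SE 0.61, adjusted p = 0.0317), was at 13.8, 32.4, 4.40 and 1.51 CPM in gated nuclei and 13.4, 9.53, 8.14 and 9.56 CPM in the others. *Gpc6*, a glypican gene (2.59, SE 0.56, adjusted p = 0.0202), was at 13.8, 8.40, 14.7 and 17.1 CPM in gated nuclei and 19.4, 10.6, 2.96 and 4.10 CPM in the others. None of *Unc5c*, *Adgrf5* and *Gpc6* passed with DESeq2. With called doublets left out none of them passed the edgeR test either (adjusted p = 0.967, 0.837 and 0.332). *Unc5c* was at -0.56 without knockout mouse 1, and *Adgrf5* at -1.71 without control mouse 2. *Adgrf5* had 20, 54, 6 and 3 UMIs in gated nuclei.

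*Slc13a1*, a sulfate transporter gene (0.72, adjusted p = 0.0317), and *Gclc*, a glutathione synthesis gene (0.74, adjusted p = 0.0443), were named after their values were seen. *Slc13a1* was at 125, 84.0, 109 and 199 CPM in gated nuclei and 231, 188, 220 and 169 CPM in the others, and *Gclc* at 139, 208, 131 and 96.3 CPM and 123, 353, 84.4 and 91.5 CPM. In proximal tubule nuclei *Gclc* was at 389, 2198, 237 and 197 CPM, with control mouse 2 high there as well, and *Slc13a1* at 1211, 1675, 950 and 1801 CPM. Proximal tubule markers were more abundant in the other *Slc12a1* nuclei than in gated nuclei of each mouse, and their part in both results was not tested.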

How the results depend on the processing

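Between genotypes, higher and lower calls (1 and 1) became 2 and 2 with DESeq2, 25 and 34 with no filter on low counts, and 24 and 49 with the replicate number as a block, and the lower call became 0 with the gate on *Enox1* alone and 2 with free RNA subtracted. Leaving out each mouse gave 1 to 27 higher and 1 to 33 lower. The deviations of same-numbered mice from their group means correlated at 0.62 over 4266 genes, but with 2 pairs and no label to tie them this pairing is only a hint from the data. In the fit with the replicate block, 6 clock genes were higher. Calls of the difference test (3 and 4) became 0 and 0 with DESeq2, 0 and 2 without TMM, 0 and 1 with filterByExpr, 0 and 2 with comparison nuclei at 0 UMIs of the 3 genes, 6 higher with no filter, 0 lower with called doublets left out and 8 lower with free RNA subtracted. Leaving out each mouse gave 1 to 9 higher and 2 to 8 lower, and *Akr1b3* turned to 0.10 with called doublets left out. Between populations, calls (635 and 684) became 252 and 165 with DESeq2, and 96 and 7 without mouse as a term. They became 396 and 359 with gate and sums on separate UMIs and lower gate limits, and 315 lower with free RNA subtracted. Leaving out each mouse gave 440 to 603 higher and 343 to 515 lower. The genotype difference in the share of all nuclei was -0.13 percentage points, and -3.02 to 2.75 without each mouse. It became 3.96 with all nuclei of at least 5 UMIs of *Lrp2*, *Cubn*, *Slc34a1* and *Slc5a12* together left out. The difference in the share of *Slc12a1* nuclei (8.48) became 4.31 to 12.7 without each mouse. It was 4.95 after thinning and 3.59 with the gate on *Enox1* alone. The causes of these shifts were not tested. Of the values of named genes under the alternatives, 434 of 448 between populations, 216 of 244 between genotypes and 127 of 165 in the difference test kept their direction and side of the threshold. Most named genes of the genotype and difference comparisons had missed the threshold, and a gene that stayed uncalled counted as kept. Of the called genes of the difference test, *Gpc6*, *Adgrf5* and *Akr1b3* lost their call in most alternatives.

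With 2 mice per group and 0 to 3 UMIs in some sums, small genotype changes were not detectable.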
